A study of Mus musculus with 15 samples.

Results

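Solute carriers are the large group of membrane proteins whose gene symbols begin with Slc and a family number, and SAM68 (Khdrbs1) is a STAR protein that binds RNA and acts in splicing and RNA processing. Here 105 mouse genes whose symbol begins with Slc and a digit, without the sodium-calcium exchanger gene Slc8a1, held at least 1 SAM68 binding site, out of 7949 genes with a site. RefSeq lists 374 protein-coding symbols of this kind, so 28.1% of them were found, against 7145 of 21900 protein-coding symbols of any name, or 32.6%. The choice rests on the symbol and on the presence of a site, apart from Slc8a1, which fits the symbol but was left out, and whose sites are given below.

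Carriers move amino acids, sugars, ions, metals, nucleotides and vitamins across the plasma membrane or across the membranes of mitochondria, lysosomes and the Golgi. Most work alone, some need a partner chain, and the family number groups proteins of related sequence, which often share a substrate. In stem cells and early embryos they are known for supplying glucose, glutamine and other amino acids to rapidly dividing cells.

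The binding sites came from iCLIP2, in which ultraviolet light fixes a protein to its RNA, an antibody against SAM68 recovers the complexes, and the place where reverse transcription stops marks the bound nucleotide. The material was the E14 mouse embryonic stem cell line with no genetic change named in the labels: undifferentiated cells kept with LIF and the 2i inhibitors of GSK3 and MEK (day 0), and embryoid bodies, in which such cells aggregate and differentiate, at day 3 and day 10. The 15 libraries, 5 for each stage, were deposited as 1 list of sites per day. These lists are 29740 (day 0), 28266 (day 3) and 74287 (day 10) sites long, each site 5 nt wide, with positions on GRCm38. They carry no value for a single library, so the spread between replicates is unknown, no test between days was possible, and the depth of the libraries is unknown. Day 3 bodies were grown in hanging drops and day 10 bodies in spheroid plates, so day and culture format cannot be told apart. RNA levels were not used here. More bound RNA, more of the transcript, and more cells that make it cannot be told apart in these lists, nor can fewer cells of a type and less RNA per cell.

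The labelled stages were compared with marker genes. Of 8 naive stem cell markers, 7 held sites on day 0, with 153 sites in all, against 10 sites on day 3 and 1 on day 10, and Sox2 held none on any day. The primed markers Fgf5, Otx2 and Dnmt3b held 45 sites on day 3 and none on the other days. Cardiac markers held 0, 4 and 289 sites, with Nkx2-5 and Myh7 at none. Endoderm markers held 0, 3 and 83, of which Dab2 alone held 0, 3 and 80, with Sox17 and Foxa2 at none. The 4 markers of primitive streak and mesoderm and the 4 neural markers held no site on any day, and those of endothelium and blood held 6, 0 and 1. These shifts run along the same days as every difference below, and their part in it was not tested.

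Throughout, the share of a gene is its sites as a portion of all sites listed on that day, given per 10000, and a share ratio between days is followed by its exact conditional 95% interval, which covers counting error only. Sites within a gene are not independent, so these intervals are too narrow. Together the carriers had 321 sites on day 0, 271 on day 3 and 466 on day 10. This was 108, 95.9 and 62.7 per 10000. The summed share on day 3 was 0.888 times that of day 0 (0.753 to 1.05), an interval that includes 1, and on day 10 it was 0.581 times that of day 0 (0.503 to 0.672) and 0.654 times that of day 3 (0.562 to 0.763). The carriers' sites grew in number on day 10, but less than the list did. For comparison, the left-out Slc8a1 alone held 439 sites on day 10 and none before, and with it the day 10 sum would be 122 per 10000, or 1.13 times that of day 0 (0.993 to 1.29).

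Gene length moved with this result. Across all named protein-coding genes the summed share on day 10 relative to day 0 was 0.737 for genes spanning under 50 kb, 0.959 for genes of 50 to 100 kb and 1.36 for longer genes. The carriers had a median span of 35.3 kb, close to the 37.0 kb of all named protein-coding genes with a site, and 92 of the 105 spanned under 100 kb. Within these length ranges the carriers stood at 0.565 (0.448 to 0.713), 0.694 (0.546 to 0.887) and 0.458 (0.338 to 0.623). The range over 100 kb had 13 carriers and includes Slc10a7, the carrier with most sites, without which its ratio was 1.05 (0.647 to 1.76). In the ranges under 100 kb the carriers' ratios thus lay below those of all genes, but single genes weighed on them too. Under 50 kb, Slc25a36 held 38 of the 129 carrier sites of day 0 and 36 of the 182 of day 10. From 50 to 100 kb, Slc7a1 held 15 of the 109 day 0 sites and none on day 10. Leaving out Slc25a36 or Slc7a1 would raise the ratio of its range, and leaving out Slc16a1 or Slc38a4 would lower it. Over 100 kb the ratio rested on single genes. After Slc10a7 was left out it was 0.617 (0.360 to 1.08) without Slc22a23 as well and 2.22 (1.16 to 4.68) without Slc39a11 as well. Without Slc10a7, the summed share of the carriers was 0.663 times the day 0 share (0.568 to 0.776) on day 10 and 0.996 times on day 3.

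Most carriers held few sites. Over the 3 lists, 22 held a single site, 52 held 2 to 9 and 31 held at least 10, with a median of 4 against 5 for all genes. The 12 carriers with most sites held 563 of the 1058 carrier sites, or 53.2%. A site was listed in 65 carriers on day 0, 66 on day 3 and 73 on day 10. On all 3 days 36 carriers held sites, while 13 did so on day 0 only, 11 on day 3 only and 18 on day 10 only. Among all genes 41.4% held sites on all 3 days and 20.2% on day 10 only, against 34.3% and 17.1% of the carriers, while 8.18% did so on day 0 only and 6.26% on day 3 only, against 12.4% and 10.5%. The median number of sites in a bound carrier was 2 on each day, whereas that of any bound gene went from 2 on day 0 and day 3 to 4 on day 10.

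**Figure D1:**
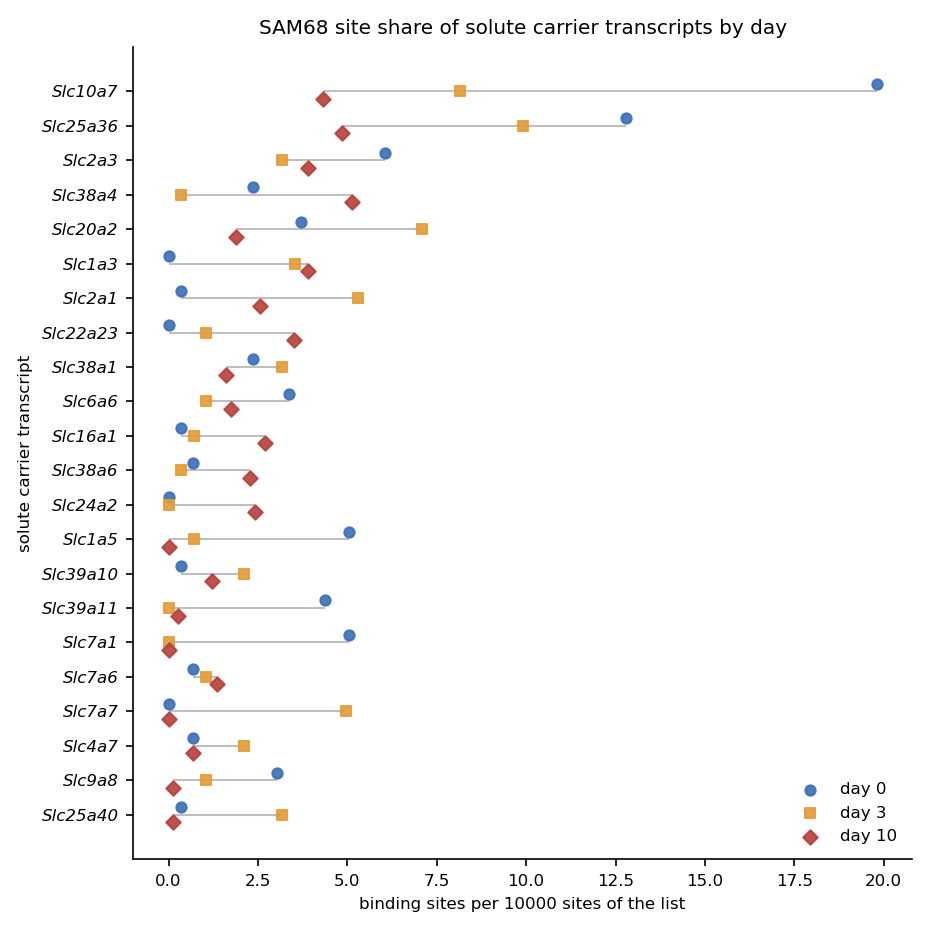
Sites per 10000 sites of each day's list (horizontal axis, linear) for the 12 solute carrier transcripts with most sites and all others whose share differed at least 2-fold in any pair of days, in order of total sites. Circles are day 0, squares day 3 and diamonds day 10, 1 list per day, and the grey line spans the 3 values. Slc10a7 goes from 19.8 on day 0 to 4.31 on day 10, whereas Slc1a3 goes from 0 to 3.90.

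For each pair of days, a carrier was counted as holding a larger or smaller share where the ratio of shares was at least 2-fold and the gene held at least 10 sites over both lists. A gene without sites on one of the days was counted as past this fold, and no ratio is printed for it. Between day 0 and day 10, 21 carriers reached the minimum and 84 did not. On day 10 the share was larger in 9 of the 21, smaller in 6 and neither in 6. These are 42.9% and 28.6%, against 34.1% and 24.7% of the 2425 genes that reached the minimum, so the carriers' counts lie near the background in both directions. Which direction had more carriers depended on the setting, with 6 larger and 7 smaller after sites less than 50 nt apart were merged, 13 and 15 with at least 5 sites, and 5 and 6 where the interval had to exclude 1. Their median log2 share ratio was -0.44 against 0.12 for all these genes, which turned to 0.23 when at least 20 sites were required. A gene of the longer day 10 list reaches the minimum at a smaller share than one of the day 0 list, which shapes these counts.

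**Figure D2:**
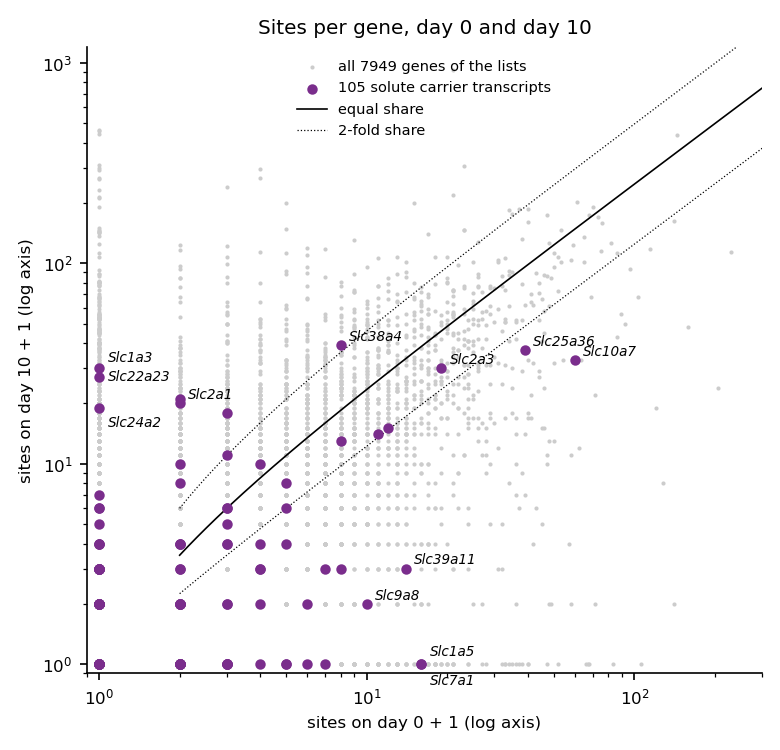
Sites on day 0 (horizontal) and on day 10 (vertical) per gene, each with 1 added and on log axes, for all 7949 genes of the lists (grey) and the 105 solute carrier transcripts (purple). The solid line marks equal shares of the lists and the dotted lines a 2-fold difference. Slc1a3, Slc22a23 and Slc24a2 stand at the left edge with 29, 26 and 18 sites on day 10, and Slc1a5 and Slc7a1 at the bottom with 15 sites each on day 0.

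Amino acid and peptide carriers were the class with most bound genes, 23 of 71 RefSeq symbols. Over the days they had 81, 61 and 138 sites, or 27.2, 21.6 and 18.6 per 10000, and the day 10 share was 0.682 times that of day 0 (0.515 to 0.909). Single genes weighed on this ratio in both directions. Slc1a5 and Slc7a1 each held 15 of the day 0 sites and none on day 10, and without either the ratio would be higher. Slc38a4 and Slc1a3 held 7 and 0 sites on day 0 and 38 and 29 on day 10, and without either it would be lower. Between day 0 and day 10, 9 of the 23 could be compared, and the share was larger on day 10 in 4, smaller in 2 and neither in 3, which is near the 34.1% and 24.7% of all genes.

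Slc1a5, which encodes the glutamine transporter ASCT2, held 15 sites on day 0, 2 on day 3 and none on day 10. It lies on chromosome 7 between 16781334 and 16798274, plus strand. Of the 15 sites, 11 lay between 16784079 and 16787183. With 0.885 sites per kb it was the second most densely bound carrier on day 0, after Slc25a36. Slc7a1, which encodes the cationic amino acid transporter CAT1, was listed with 15 sites on day 0 and with none later. They were spread over 97.5% of its span on chromosome 5, between 148327738 and 148398419. Both genes thus held their sites almost wholly on day 0. The same order was seen, at lower numbers, in Slc7a5, which encodes the large neutral amino acid transporter LAT1, with 6, 2 and 0 sites, and in Slc3a2, its partner chain, with 5, 1 and 0. These last 2 genes were singled out after their values were seen and fall under the minimum.

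In family 7, 2 other light chains that pair with Slc3a2 had few or no sites on day 0. Slc7a7, which encodes the light chain y+LAT1, held 0, 14 and 0 sites. Its 14 sites of day 3 made it the only carrier with at least 10 sites over the 3 lists that was bound on day 3 alone. This is 1 of 31 such carriers (3.23%), against 11 of 2876 genes (0.382%), and the carriers' percentage rests on this gene. Slc7a6, which encodes the related y+LAT2, held 2, 3 and 10 sites, or 0.672, 1.06 and 1.35 per 10000. Its day 10 share was 2.00 times that of day 0 (0.427 to 18.8), an interval that includes 1. The family of 6 bound genes together held 24, 20 and 11 sites, and its share on day 10 was 0.183 times that of day 0 (0.0811 to 0.389). This rested on single genes, since it was 0.489 times (0.184 to 1.34) without Slc7a1 and 0.0182 times (0.000441 to 0.113) without Slc7a6.

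For Slc7a7 the sequence around 1 of its 14 sites of day 3 can be shown, because it lies in a window that RefSeq (GRCm38.p6) places around transcript starts of the gene. It is the only carrier site for which this held with 20 nt on either side, and it is shown as the local context of a site in the gene bound on day 3 alone. The sequence shown is chr14:54417731-54417771, minus strand, and the centre of the site, 54417751, lies 49 and 72 nt upstream of 2 annotated starts and inside the gene's longer span. The capitals mark the 5 nt of the site.

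Slc7a7, day 3 site: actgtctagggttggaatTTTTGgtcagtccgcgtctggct

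The core motif known for SAM68 is UAAA. The letters TAAA, searched on the transcribed strand, were not found in these 41 nt, and neither were the letters TTAA. Of 32851 stretches of the same length, taken at 1 fixed place in each RefSeq promoter entry, 13.8% held TAAA and 11.9% held TTAA. The bound 5 nt are mostly T, which is U in the RNA.

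Slc1a3, Slc38a4, Slc38a6 and Slc7a6 were the amino acid carriers with a larger share on day 10 than on day 0. Slc1a3, the glutamate transporter GLAST, held 0, 10 and 29 sites, or 0, 3.54 and 3.90 per 10000, so that its share was similar on day 3 and day 10 (ratio 1.10, interval 0.523 to 2.54). Slc38a4, the neutral amino acid transporter SNAT4, whose gene is imprinted, held 7, 1 and 38 sites, the most of any carrier on day 10. Its day 10 share was 2.17 times that of day 0 (0.959 to 5.77) and 14.5 times that of day 3 (2.44 to 586). On day 0, 6 of its 7 sites lay between 97041400 and 97045433 of chromosome 15, minus strand, and on day 10 the window of 5 kb with most sites was nearly the same, from 97041268 to 97046247 with 13 of 38 sites.

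Slc38a4 has 2 neighbours of the same family and strand, Slc38a1 and Slc38a2, within 485 kb of chromosome 15 (96571418 to 97055956). They encode the transporters SNAT1 and SNAT2. Slc38a1 held 7, 9 and 12 sites, with a day 10 share 0.686 times that of day 0 (0.249 to 2.06), and Slc38a2, named for its position after its values were seen, held 1, 5 and 3. Neither held the large number on day 10 that Slc38a4 did. Elsewhere in the family, Slc38a6 held 2, 1 and 17 sites, with a day 10 share 3.40 times that of day 0 (0.808 to 30.4), and Slc38a9, a lysosomal arginine sensor upstream of mTORC1, held 3, 3 and 9, at 1.20 times (0.300 to 6.90); it was named after its values were seen. Family 38 as a whole, with 6 bound genes, held 21, 19 and 79 sites, and its day 10 share was 1.51 times that of day 0 (0.921 to 2.57).

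Slc6a6, the taurine transporter, held 10, 3 and 13 sites. Its share on day 3 was 0.316 times that of day 0 (0.0558 to 1.23) and on day 10 it was 0.520 times (0.211 to 1.33). Of its 13 day 10 sites, 7 lay within the last 5 kb of the gene on chromosome 6, between 91755361 and 91759001. The position 91758982, 81 nt before the annotated end of the gene, was listed on all 3 days.

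Sugar carriers were few, with 3 bound of 30 RefSeq symbols, but 2 of them were among the carriers with most sites. Slc2a3, the glucose transporter GLUT3, held 18, 9 and 29 sites, or 6.05, 3.18 and 3.90 per 10000, and no pair of days differed by 2-fold. Slc2a1, the glucose transporter GLUT1, held 1, 15 and 19 sites, or 0.336, 5.31 and 2.56 per 10000. Its day 3 share was 15.8 times that of day 0 (2.43 to 664), and its day 10 share was 7.61 times that of day 0 (1.21 to 316) and 0.482 times that of day 3 (0.232 to 1.02). The summed share of the class was 6.39 per 10000 on day 0 and 6.46 on day 10, summing a lower value in Slc2a3 and a higher one in Slc2a1. The remaining member, Slc5a11, an inositol carrier, held a single site, on day 3.

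These 2 glucose carriers also differed in where the sites lay. In Slc2a3 all 18 sites of day 0 lay in 18.5% of the RefSeq span, which begins far upstream, between 122728534 and 122742349 of chromosome 6, minus strand. Of them, 12 fell in the 5 kb window from 122737938 to 122742349. In Slc2a1, plus strand on chromosome 4, 9 of the 15 day 3 sites lay in the window from 119109506 to 119114473 near the start of the gene, and on day 10 the densest window, with 6 of 19 sites, lay from 119109620 to 119111266. Its 1 site of day 0 lay at 119137222, at the other end of the gene.

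Carriers of organic acids, lipids, vitamins and nucleosides held 84, 60 and 97 sites, with 21 of 107 RefSeq symbols bound. The share on day 10 was 0.462 times that of day 0 (0.342 to 0.627), and 59 of the 84 sites of day 0 lay in 1 gene, without which the ratio was 1.04 (0.647 to 1.72). This gene, Slc10a7, a member of the bile acid carrier family whose transported substrate is not settled, held 59, 23 and 32 sites, and those of day 0 were 18.4% of all carrier sites on day 0. Its share was 0.410 times that of day 0 on day 3 (0.242 to 0.674) and 0.217 times on day 10 (0.137 to 0.339). The sites were spread over 82.5% of its span on day 0, between 78511457 and 78696930 of chromosome 8, and the densest 5 kb window lay at nearly the same place on each day, from 78599563 to 78603626 with 9 sites on day 0, from 78598618 to 78602959 with 7 on day 3 and from 78598630 to 78602185 with 7 on day 10.

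Slc16a1, the lactate and pyruvate carrier MCT1, held 1, 2 and 20 sites, and Slc22a23, an orphan of the organic ion family, held 0, 3 and 26. The day 10 share of Slc16a1 was 8.01 times that of day 0 (1.28 to 332) and 3.80 times that of day 3 (0.924 to 33.6). For Slc22a23 the day 10 share was 3.30 times that of day 3 (1.01 to 17.0). Both therefore had most of their sites on day 10, and Slc16a1, with 1.01 sites per kb, was as densely bound on that day as Slc25a36. Of its 20 sites, 8 lay between 104640401 and 104642698 of chromosome 3, toward the start of the gene.

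**Figure D3:**
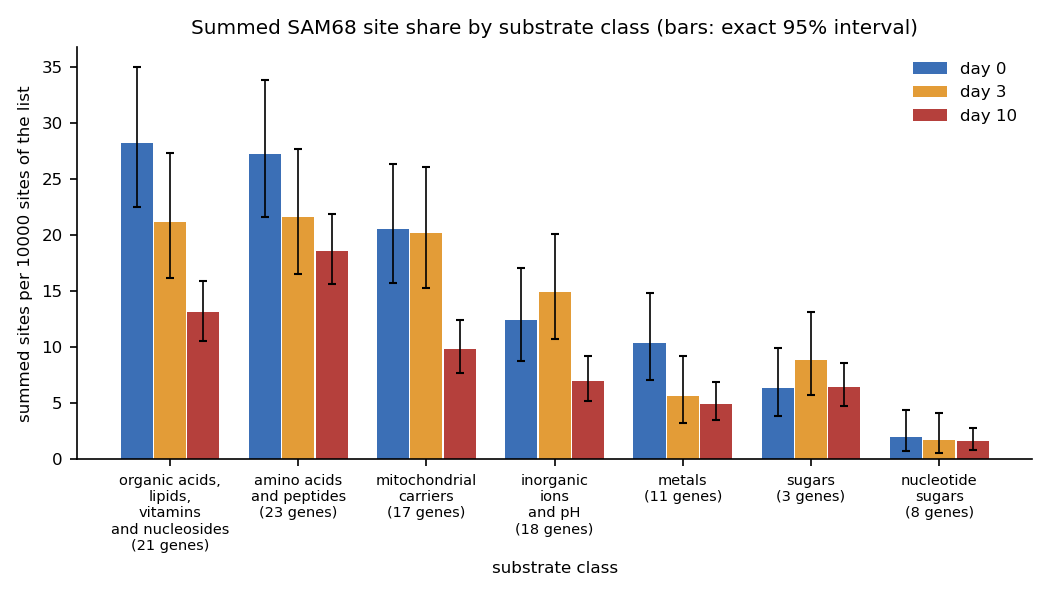
Summed sites per 10000 sites of the list (vertical axis, from 0) of the bound solute carrier genes of each substrate class on day 0, day 3 and day 10, with exact binomial 95% intervals as error bars. The number of genes with a site in any list is given under each class. Mitochondrial carriers stand at 20.5, 20.2 and 9.83, and sugar carriers at 6.39, 8.84 and 6.46.

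Mitochondrial carriers, classed here by family number alone as all members of family 25, were bound in 17 of 47 RefSeq symbols, or 36.2%. They held 61, 57 and 73 sites, or 20.5, 20.2 and 9.83 per 10000, and the day 10 share was 0.479 times that of day 0 (0.336 to 0.685). More of these sites lay in Slc25a36, a pyrimidine nucleotide carrier, than in all other members together on day 0, with 38, 28 and 36 sites over the days. Its share on day 10 was 0.379 times that of day 0 (0.234 to 0.615), with 36 sites against 38. Relative to day 3 it was 0.489 times (0.290 to 0.832), with 36 sites against 28. Against day 3 the day 10 share of the class was 0.487 times (0.340 to 0.702). The class ratio of day 10 to day 0 leaned on Slc25a36 and would be higher without it. Whether the lower share is a trait of the class was not tested.

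Per length, Slc25a36 was the most densely bound carrier on day 0 and day 3, with 1.06 and 0.783 sites per kb of its span of 35.8 kb on chromosome 9. It was also the carrier with most positions listed on all days. These were 5, at 97076902, 97080949, 97086371, 97087611 and 97091193 by their day 0 centres, and 14 of its 38 day 0 sites overlapped a site of another day. No other carrier had more than 2 such positions.

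Slc25a3, the mitochondrial phosphate carrier, held 4, 4 and 7 sites within a short gene of 7.47 kb, and its position 91116859 on chromosome 10 was listed on all 3 days. Slc25a37, the iron importer mitoferrin-1, held 1, 4 and 7 sites. Slc25a40, a carrier linked to mitochondrial glutathione, held 1, 9 and 1, with a day 3 share 9.47 times that of day 0 (1.31 to 415) and a day 10 share 0.0423 times that of day 3 (0.000965 to 0.305). Of its 9 day 3 sites, 6 lay between 8449961 and 8454412 of chromosome 5, at the far end of the gene. Slc25a40 was the mitochondrial carrier whose share was at least 2-fold larger on day 3 than on day 0 among those that reached the minimum.

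Carriers of inorganic ions held 37, 42 and 52 sites, with 18 of 55 RefSeq symbols bound, and a day 10 share 0.563 times that of day 0 (0.362 to 0.882), or 0.368 times (0.224 to 0.602) without Slc24a2. Slc20a2, the phosphate transporter PiT2, held 11, 20 and 14 sites, and its day 10 share was 0.266 times that of day 3 (0.124 to 0.554). Its day 3 share was 1.91 times that of day 0 (0.874 to 4.42), just under the 2-fold mark. Slc24a2, a calcium exchanger that uses sodium and potassium, held 0, 0 and 18 sites. It was the only carrier with at least 10 sites over the 3 lists bound on day 10 alone. This is 1 of 31 such carriers (3.23%), against 157 of 2876 genes (5.46%). Slc8a1, which also exports calcium in exchange for sodium, showed its sites on the same day. The 18 sites of Slc24a2 covered 94.3% of its span of 248 kb on chromosome 4, at 0.0727 sites per kb.

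Carriers involved in pH held few sites on every day, with 6, 6 and 7 in family 4 and 11, 10 and 5 in family 9. Slc9a8, a sodium-proton exchanger of the Golgi, held 9, 3 and 1 sites, with a day 10 share 0.0445 times that of day 0 (0.00101 to 0.321). Slc4a7, a sodium bicarbonate cotransporter, held 2, 6 and 5, with a day 10 share 0.317 times that of day 3 (0.0765 to 1.25), an interval that includes 1. Against day 0 its day 10 share was 1.00 times (0.164 to 10.5).

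Metal carriers held 31, 16 and 37 sites, with 11 of 32 RefSeq symbols bound. The day 3 share was 0.543 times that of day 0 (0.277 to 1.02) and the day 10 share 0.478 times (0.288 to 0.796). Without Slc39a11 these were 0.935 (0.446 to 1.94) and 0.778 (0.429 to 1.46), and without Slc39a10 the day 3 ratio was 0.351 (0.153 to 0.737). Slc39a11, a zinc transporter of the ZIP family, held 13, 0 and 2 sites, with a day 10 share 0.0616 times that of day 0 (0.00675 to 0.272). Slc39a10, of the same family, went the other way with 1, 6 and 9, and its day 10 share was 3.60 times that of day 0 (0.499 to 158). Of the 6 day 3 sites of Slc39a10, 4 lay between 46815164 and 46816702 of chromosome 1, and 4 of the 9 day 10 sites lay between 46815165 and 46815844, so that neighbouring positions were listed on both days. Slc30a7, a zinc transporter into the Golgi, held 4, 3 and 5 sites.

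Carriers of nucleotide sugars, which feed glycosylation in the Golgi, were classed by family number alone, so not every member need carry these sugars. They were sparsely bound, with 6, 5 and 12 sites in 8 of 27 genes. Slc35b3 held 0, 0 and 5 sites, and Slc35g1 held 4, 0 and 0. Slc35a2, Slc35a3 and Slc35e2 held 3 sites each over the 3 lists. None reached the minimum, so no pair of days was compared. Of the bound genes, 3 carry a carrier's name without being one: Slc7a6os, with 2, 3 and 5 sites, Slc4a1ap, with 0, 1 and 2, and Slc9a3r1, a scaffold protein that anchors exchangers, with 0, 1 and 1. Slc7a6os lies next to Slc7a6 on the opposite strand of chromosome 8, and the 2 spans do not overlap (106168219 to 106198714 and 106200438 to 106210933). Slc49a4, of a family outside these classes, held 1 site, on day 10.

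Between day 0 and day 3, 15 carriers reached the minimum. On day 3, 4 of them held a larger share (26.7%, against 19.3% of the 1573 genes that reached the minimum), namely Slc2a1, Slc1a3, Slc7a7 and Slc25a40. A smaller share was held by 6 (40.0% against 20.3%), namely Slc7a1, Slc39a11, Slc1a5, Slc6a6, Slc9a8 and Slc10a7, and 5 held neither. The median log2 ratio was -0.36 against 0.00 for all these genes, and it turned to 0.39 when at least 5 sites were required. The share of carriers with a smaller share was above the background, but it rests on 6 genes, and for 2 of these, Slc6a6 and Slc9a8, the interval of the ratio included 1.

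Between day 3 and day 10, 21 carriers reached the minimum. A larger share on day 10 was held by 5 (23.8% against 29.1% of 2333 genes), namely Slc38a4, Slc24a2, Slc38a6, Slc16a1 and Slc22a23. A smaller share was held by 6 (28.6% against 21.3%), namely Slc7a7, Slc25a40, Slc20a2, Slc4a7, Slc2a1 and Slc25a36, and 10 held neither. After scaling by the median ratio the split was 5 and 4. Both percentages lie near the background. The 3 comparisons share their lists, so the same day enters 2 of them each time.

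**Figure D4:**
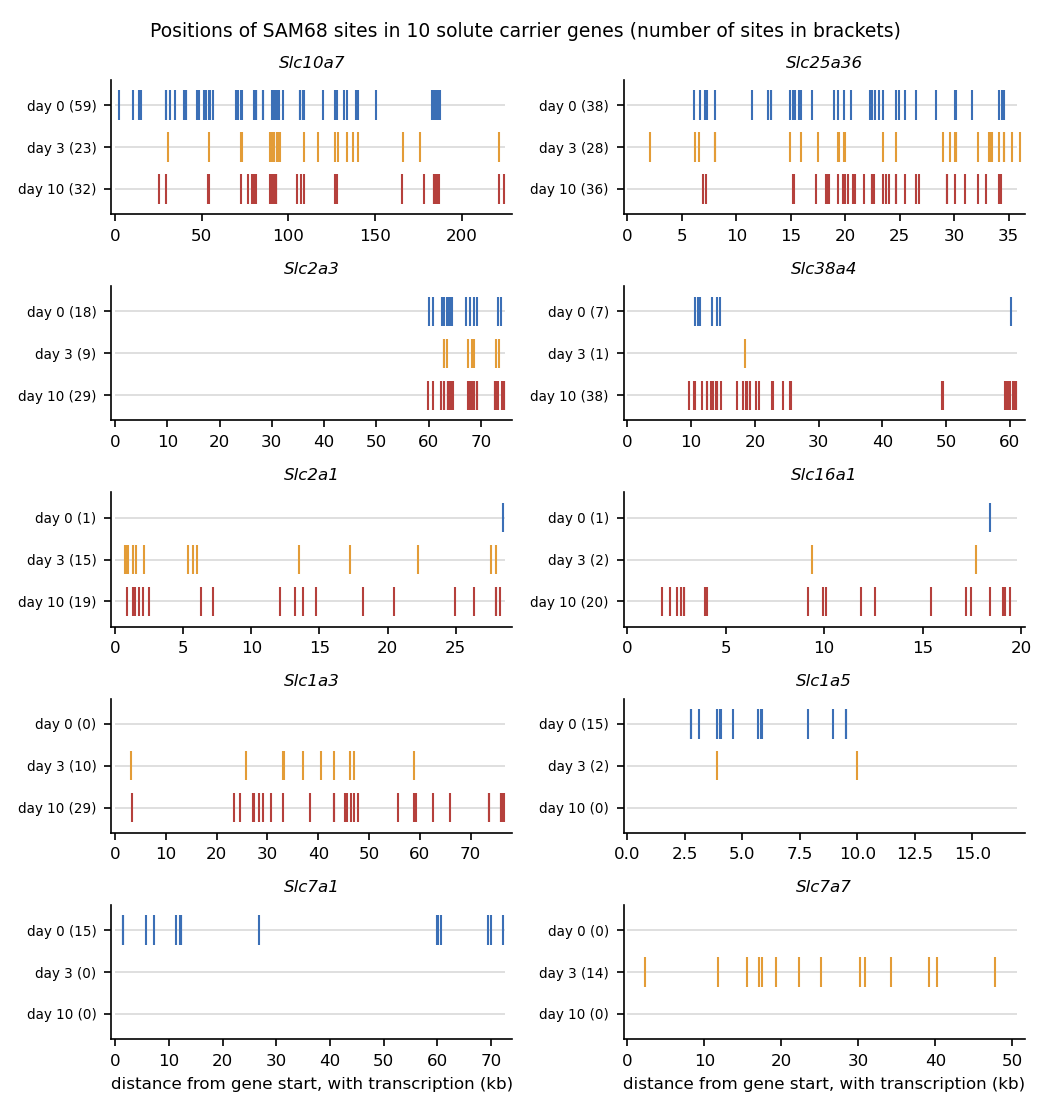
Positions of SAM68 sites (vertical ticks) in 10 solute carrier genes, as the distance in kb from the RefSeq start of the gene in the direction of transcription, with 1 row per day and the number of sites in brackets. Sites of Slc2a3 gather near the end of the span on all days, those of Slc2a1 and Slc16a1 include a group near the start on day 10, and Slc1a5, Slc7a1 and Slc7a7 hold nearly all of theirs on 1 day.

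The lists were also compared for positions that recur between days. A site was called repeated where it shared at least 1 nt on the same strand with a site of another day. Of the carrier sites of day 0, 72 of 321 were repeated, or 22.4% (exact binomial 95% interval 18.0 to 27.4), against 31.5% of the other sites of that day. On day 3 it was 26.6% (21.4 to 32.2) against 33.6%, and on day 10 it was 16.1% (12.9 to 19.8) against 15.5%. In carriers 16 positions were listed on all 3 days, in 10 genes, and 5 of them belonged to Slc25a36. They were 4.98% of the carrier sites of day 0 (2.88 to 7.97) and 5.90% of those of day 3 (3.41 to 9.41). Among other sites these percentages were 10.1% and 10.6%. On day 10 the values were 3.43% (1.98 to 5.52) and 4.04%. On day 0 and day 3 the carriers' percentages were below those of the other sites, and on day 10 they were alike. When identical positions on another day were required, the repeated carrier sites were 12.5% (9.05 to 16.6) on day 0 and 13.3% (9.48 to 17.9) on day 3. The other sites gave 15.5% and 17.0%, which lie inside these intervals. The differences were not tested, and repeats are more likely where a gene holds many sites.

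Single carriers differed in this respect. Slc20a2 held 11, 20 and 14 sites, of which 2, 3 and 3 were repeated on another day. Slc38a1 held 7, 9 and 12, with 1, 1 and 0 repeated, and Slc38a9 held 3, 3 and 9 with none repeated. In Slc2a3, by contrast, 10 of 18 day 0 sites, 6 of 9 day 3 sites and 13 of 29 day 10 sites were repeated.

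Sites were then placed along the gene. The last 10% of the span held 45 of 321 carrier sites on day 0 (exact 95% interval 10.4% to 18.3%), 20.3% on day 3 (15.7 to 25.6) and 19.7% on day 10 (16.2 to 23.7), against 12.3%, 13.3% and 11.0% of sites in all named protein-coding genes. Slc2a3 adds to the carriers' percentages, since its RefSeq span begins far upstream. All 29 of its day 10 sites lay in 19.6% of that span, near its end. Within 1 kb of the annotated end lay 6.54%, 9.23% and 9.01% of carrier sites, against 6.10%, 6.60% and 4.68%. On day 10 these were 42 sites in 22 carriers, among them 4 each in Slc38a4, Slc1a3 and Slc6a6. Since short genes have more of their sequence near the end, the comparison was repeated over genes of 10 to 100 kb, where it gave 9.55% (6.70 to 13.1) for carriers and 6.52% for all named protein-coding genes on day 10, and 6.70% and 7.23% on day 0. The table used here gives gene spans only, so whether a site lies in an exon, an intron or an untranslated region was not determined.

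Other transport proteins are given for context, and their counts stand against the 34.1% of all genes with a larger and the 24.7% with a smaller share on day 10 than on day 0. Of 15 bound ABC transporters, which use ATP to move their cargo, 5 could be compared between day 0 and day 10, and the day 10 share was larger in none, smaller in 4 and neither in 1. Of 23 bound subunits of P-type and V-type ATPase pumps, 12 could be compared, and the day 10 share was larger in 2, smaller in 2 and neither in 8. Among 18 bound genes of voltage-gated and related potassium, sodium and calcium channels, 7 could be compared, with a larger day 10 share in 6 and a smaller one in 1. The channel genes had a median span of 301 kb, far above that of the carriers, and length moved with the share as described above. The 2 bound SLCO organic anion carriers held 1, 0 and 4 sites.

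Of the listed accessory proteins of carriers, 8 were bound, among them Slc3a2, which is also counted as a carrier above, with 85, 71 and 199 sites in all. Wnk1, a kinase that regulates cation-chloride cotransporters, held 64, 44 and 135 of them, at a day 10 share 0.844 times that of day 0 (0.623 to 1.16). Emb, the chaperone embigin that accompanies monocarboxylate carriers such as Slc16a1 to the membrane, held 0, 23 and 54, and Bsg, basigin, the other chaperone of these carriers, held 0, 0 and 2. Nedd4l, a ubiquitin ligase that acts on transporters and channels, held 15, 0 and 3, with a day 10 share 0.0801 times that of day 0 (0.0149 to 0.283). The share of Emb was 8.14 per 10000 on day 3 and 7.27 on day 10 (ratio 0.893, interval 0.539 to 1.53), whereas that of Slc16a1 was 0.708 and 2.69. The difference between the 2 genes was not tested.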

How the data were processed

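Per the labels' protocols, cells were crosslinked at 254 nm with 150 mJ/cm2, RNA was cut with RNase I to 50 to 200 nt and reads carried molecular barcodes (UMIs). The submitters' processing notes name STAR 2.7.11a, UMI-tools 1.1.6 and bedtools 2.31.1 and the build GRCm38.p5. For the site caller, the filter on replicates and the way libraries were joined, the sources used here give nothing. Per the file headers, sites in overlapping genes were removed, which can lower the number of sites of genes that overlap others, and the score the authors deposited is 0 for every site and was not used. IDs took the symbol of the RefSeq gene (GRCm38.p6) of the same class and, where given, strand whose span held at least 80% of their sites; 7488 of 7949 (94.2%) were named. One ID with 1 site, whose candidates include Slc23a1, stayed unnamed. Coordinates are 1-based centres. Log2 ratios used a pseudocount of 1 site, split by list length. The genes, families and lists were chosen with earlier results of these data known. Named are the 12 carriers with most sites, those past the 2-fold mark, the 3 with most sites per class, those with at least 3 positions on all days, and genes that are no carriers; others are marked as chosen later or belong to the accessory list. Ratios of classes, families and length ranges without single genes were added after seeing the data. The 2-fold call, the share ratio with its interval and the log2 ratio were tested on simulated counts drawn independently. Sites within a gene are not independent, so this leaves the width of the intervals in these data untested. Python 3.11.15, NumPy 2.4.6, pandas 2.3.3, SciPy 1.17.1 and matplotlib 3.10.9 were used.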

Additional observations from a re-analysis of the deposited data

How the results depend on the processing

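No paired analysis was possible because each day has 1 combined list without columns per library, and for the same reason no library could be left out in turn. The number of carriers past the 2-fold mark was 15, 10 and 11 for day 10 against day 0, day 3 against day 0 and day 10 against day 3. With at least 5 sites it was 28, 24 and 23, and with at least 20 sites 7, 1 and 6, because more or fewer genes reach the minimum. With a 4-fold mark it was 5 for day 10 against day 3. Scaling by the median ratio, which shifts all genes by -0.06, 0.02 and -0.08 (log2), merging sites less than 50 nt apart, list lengths of protein-coding genes and naming at 50% of sites kept these counts within 1.5 times, though not always which direction had more carriers. The median log2 ratio turned to 0.23 for day 10 against day 0 with at least 20 sites (10 carriers) and to 0.39 for day 3 against day 0 with at least 5 sites (35 carriers). The cause was not tested. The ratios of the summed share of all carriers stayed within their intervals with merged sites, with list lengths of protein-coding genes and without Slc10a7; those of classes, families and length ranges without single genes did not always, as given with the results. Repeated positions were 12.5%, 13.3% and 8.58% of day 0, day 3 and day 10 carrier sites when identical positions were required. Of other sites they were 15.5%, 17.0% and 7.47%. For centres within 25 nt, the carriers' values were 25.5% (20.9 to 30.7), 31.4% (25.9 to 37.3) and 20.6% (17.0 to 24.6). Those of other sites were 36.7%, 38.9% and 19.2%, outside the carriers' intervals on day 0 and day 3 and inside on day 10.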
